A study of Mus musculus with 6 samples.

Results

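The 10 genes described here encode the main proteins that coat the lipid droplet of the muscle fibre, break down its triglyceride and build it up again. They were taken by symbol from the table of expected counts per gene: the perilipins Plin2, Plin4 and Plin5, the lipases Pnpla2 and Lipe, the lipase regulators Abhd5 and G0s2, the acyltransferases Dgat1 and Dgat2, and Angptl4. These are 10 of 24054 genes in the table, and all 10 were among the 12660 genes abundant enough to be tested. The list was written from the known roles of the genes, without a threshold on their values but with earlier results of these data known.

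RNA-seq was performed on the gastrocnemius, a mixed calf muscle rich in fast fibres, of male C57BL/6 mice, with 3 libraries from MI4KO and 3 from MI4OE muscle. MI4KO mice lack IRF4 (interferon regulatory factor 4, a transcription factor) in muscle through Irf4 flox/flox alleles cut by Myl1-Cre, and MI4OE mice carry Rosa26-LSL-Irf4, switched on by the same Cre. Both groups therefore carried Myl1-Cre, which the study describes as selective for skeletal muscle. Whether it acts in the fat, vessel and connective tissue cells of the muscle was not tested here. Muscle of flox or wild-type mice was not analysed here, so each difference is between the knockout and the overexpressor, and the age of the mice was not given in the sources used here. The labels place all 6 samples on high-fat food while the study describes mice on chow, which leaves the diet in doubt.

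In muscle, fatty acids arrive from the blood and are stored as triglyceride in small droplets that lie next to mitochondria. Pnpla2 (ATGL) removes the first fatty acid of a triglyceride and Lipe (hormone-sensitive lipase) the next one. Abhd5 (CGI-58) is the protein that activates Pnpla2, and G0s2 is one that inhibits it. Perilipins on the droplet surface decide how far the lipases reach the fat, and Dgat1 and Dgat2 catalyse the last step of triglyceride synthesis. Angptl4 is secreted, inhibits lipoprotein lipase and thereby lowers the uptake of fatty acids from circulating lipoproteins. Many of these genes are known targets of the PPAR family of fatty-acid-sensing nuclear receptors, and Angptl4 is also induced by fasting and by glucocorticoids.

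The list divided into sets of genes with unlike patterns. Angptl4 and Lipe were lower in all MI4OE libraries than in any MI4KO library on the CPM scale. Plin5, Dgat2, G0s2 and Pnpla2 were highest in a single MI4OE library, replicate 1, and did not separate the genotypes. Abhd5 and Dgat1 varied little, and Plin2 and Plin4 had lower means in MI4OE with overlapping groups. By the quasi-likelihood test of edgeR none of the 10 genes reached an adjusted p under 0.05, a threshold that 0.0237% of all tested genes passed. At an unadjusted p under 0.05 there were 2 of 10, against 7.58% of all genes, and with DESeq2 or edgeR's exact test 1 of the 10, Angptl4, passed the adjusted threshold, as did 0.877% and 0.853% of all genes.

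**Figure D1:**
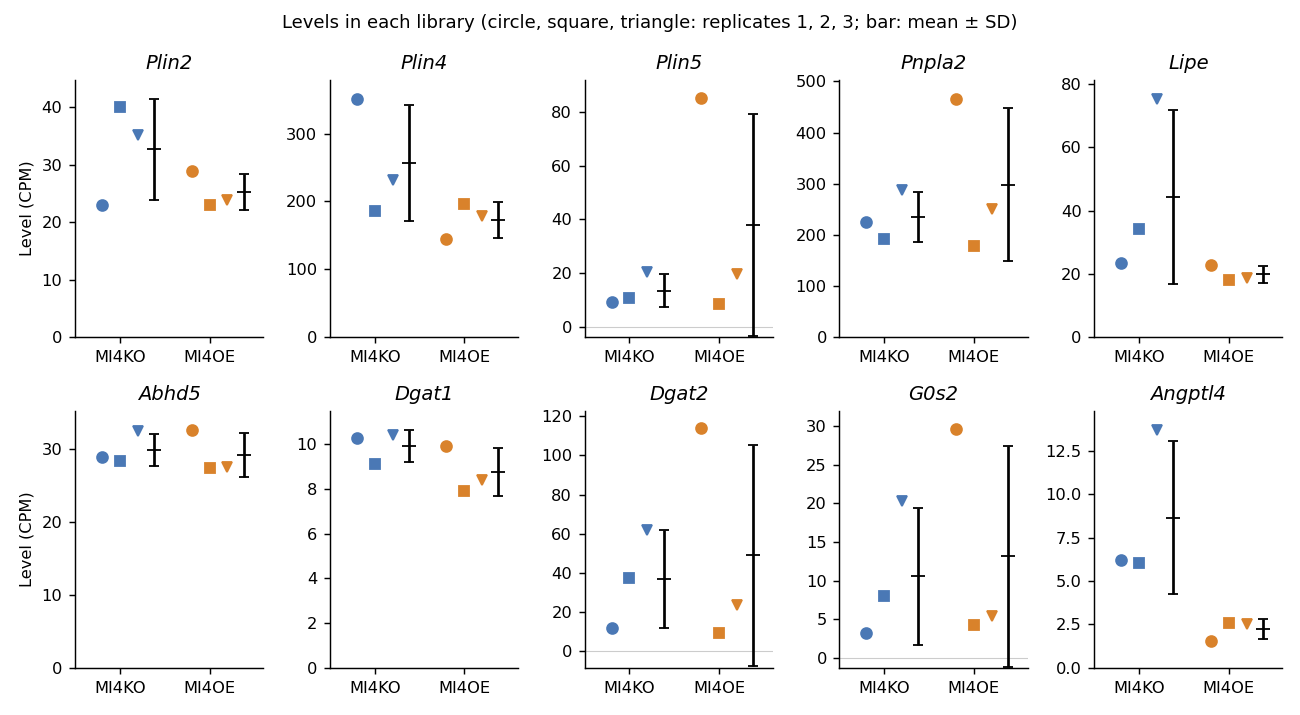
Level of each of the 10 genes in CPM (counts scaled to the library size, linear axis) in the 3 MI4KO libraries (blue) and the 3 MI4OE libraries (orange), with the mean and SD of each group beside the points. Angptl4 and Lipe are the panels in which the groups do not overlap, and in the Plin5, Pnpla2, Dgat2 and G0s2 panels MI4OE replicate 1 lies above the other 5 libraries.

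The libraries held 18828605 to 29239585 expected counts, so that a floor of 3 counts lay between 0.101 and 0.148 CPM, well below each of the 10 genes. The manipulated gene followed the labels, with Irf4 at 0 to 6 counts in MI4KO and 2864 to 10557 counts in MI4OE. Fast-fibre markers, which define this muscle, summed to between 217823 and 402105 CPM. MI4OE replicate 1 stood apart from the other libraries: its 10 most abundant genes took 25.5% of its counts against 32.8% to 36.8% elsewhere, and its slow-fibre markers were the highest. It also had the fewest expected counts. Within MI4OE it had the lowest Irf4, at 141 CPM against 369 and 261 CPM in replicates 2 and 3. The libraries are treated as separate samples of a group, but the labels do not say that each came from its own animal, and the p-values then measure only the spread between these libraries. In whole muscle, fewer cells of a type and less RNA per cell cannot be told apart.

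Sequence upstream of the genes was taken from RefSeq promoter windows (GRCm38.p6, 250 bases before to 50 after the start), which held 9 windows for 7 of the 10 genes and none for Dgat1, Dgat2 and Angptl4. The nuclear receptor half-site AGGTCA, which PPARs and related receptors bind, was searched on both strands. It lay in 4 of the 9 windows, belonging to Plin2, Abhd5 and Plin5 (both of its windows), and in 16.3% of all 32851 windows. The 3 stretches below are the parts of those windows outside annotated genes, shown because they place the same 6-base site upstream of one gene with a wide range over the libraries (Plin5) and of others with a narrower one (Abhd5, Plin2). Each is written 5′ to 3′ on the strand of its gene, with the site in capitals, where TGACCT is AGGTCA on the opposite strand.
Plin5, chr17:56117607-56117798, minus strand: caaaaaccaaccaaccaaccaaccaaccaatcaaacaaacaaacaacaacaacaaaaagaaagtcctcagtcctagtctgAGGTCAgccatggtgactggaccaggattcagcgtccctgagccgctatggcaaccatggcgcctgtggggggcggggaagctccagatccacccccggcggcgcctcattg
Abhd5, chr9:122351366-122351607, plus strand: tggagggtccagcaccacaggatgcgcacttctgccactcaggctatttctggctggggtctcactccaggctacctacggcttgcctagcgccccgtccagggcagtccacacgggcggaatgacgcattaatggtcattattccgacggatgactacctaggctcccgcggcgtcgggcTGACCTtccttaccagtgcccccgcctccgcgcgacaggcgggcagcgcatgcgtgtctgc
Plin2, chr4:86670218-86670309, minus strand: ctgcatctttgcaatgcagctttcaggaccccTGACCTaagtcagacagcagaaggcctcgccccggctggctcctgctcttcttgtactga

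The site began 170 bases before the start in one Plin5 window and 13 bases after the start in the other. It began 69 bases before the start in Abhd5 and 218 before it in Plin2. Of the longer motifs, none was found in the 9 windows: the PPAR-RXR direct repeat (0.381% of all windows), the ERR element TCAAGGTCA (0.423%), which contains the half-site, the glucocorticoid receptor element (0.475%), the interferon-stimulated response element (3.44%), the ETS-IRF composite element (2.72%), which shares bases with the preceding motif, and the MEF2 element (3.69%). A match is a description of letters, and its absence says only that these letters are not in these windows.

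Angptl4 differed most clearly. Its level was 6.18, 6.06 and 13.7 CPM in MI4KO replicates 1, 2 and 3, and 1.57, 2.59 and 2.52 CPM in MI4OE replicates 1, 2 and 3. Every MI4OE library lay below every MI4KO library, and the highest value by far was that of MI4KO replicate 3. The counts behind these levels were 151 to 408 in MI4KO and 32 to 74 in MI4OE. The means were 8.65 ± 4.38 CPM (SD, n = 3) and 2.23 ± 0.566 CPM (SD, n = 3), a 3.87-fold lower level in MI4OE. On the log2 scale the difference was -1.95 (SE 0.39, 95% interval from -2.86 to -1.04).

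By edgeR's quasi-likelihood test the p of Angptl4 was 0.00122, which ranked it 35 among the 12660 genes, and its adjusted p was 0.433. Angptl4 met the criterion of the study's methods, at least 1.5-fold with an unadjusted p under 0.05, which 6.64% of all genes met and 2.28% met in this direction. DESeq2 gave it an adjusted p of 0.00105 and edgeR's exact test 0.00234, and the adjusted p ran from 0.00105 to 0.912 over the 14 alternatives. Permuting the libraries exactly (two-sided) returned p = 0.1, the smallest that 3 against 3 allows. The fold change kept its direction in all 14 alternatives, between -2.16 and -1.42, and was -1.47 without MI4KO replicate 3.

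Lipe was the other of the 10 genes whose groups did not overlap in CPM. Its level was 23.3, 34.2 and 75.4 CPM in the MI4KO libraries and 22.8, 18.0 and 18.6 CPM in the MI4OE libraries. MI4KO replicate 1 lay barely above MI4OE replicate 1, whereas MI4KO replicate 3 held more than any other library. This was a 2.24-fold lower level in MI4OE (log2 fold change -1.16, SE 0.40). Its edgeR quasi-likelihood p was 0.0217 and its adjusted p 0.557, and the exact permutation p over libraries was again 0.1 (two-sided). Leaving out MI4KO replicate 3 brought it to -0.55, and leaving out MI4KO replicate 1 to -1.47. Lipe met the criterion with all 6 libraries, which made 2 of the 10 genes with Angptl4, but not without MI4KO replicate 3, where it fell short of 1.5-fold, nor without MI4OE replicate 2 or 3, where its unadjusted p was 0.0509 and 0.0557. In TPM the groups did overlap, since Lipe was at 11.35, 22.95 and 43.81 TPM in MI4KO against 12.52, 11.43 and 11.49 TPM in MI4OE, and limma on log2(TPM + 1) left Angptl4 as the 1 gene of the list past the criterion. The expected counts of Lipe were not whole in any of the 6 libraries, since RSEM assigned part of its reads among more than 1 place. Groups without overlap and with MI4OE lower were found for 2 of the 10 genes, against 5.48% of all genes, and 12.9% of all genes had no overlap in either direction.

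The adipocyte markers also had lower levels in MI4OE on average. Their summed level was 199, 427 and 1041 CPM in the MI4KO libraries and 279, 153 and 126 CPM in the MI4OE libraries. The sums overlapped between MI4KO replicate 1 and MI4OE replicate 1 through Fabp4, a fatty acid carrier that capillaries also express, at 128 and 260 CPM there. Without Fabp4 the other 11 markers summed to 71.1, 215 and 643 CPM in MI4KO and to 19.0, 48.4 and 22.4 CPM in MI4OE, with no overlap. Of 12 markers 10 could be tested, and all 10 were lower in MI4OE, 9 by the 1.5-fold criterion and 6 without overlap, and Adrb3, too low to test, was at 0 in MI4KO replicate 1 and MI4OE replicate 3. Adipoq, the hormone adiponectin made by fat cells, reached 9.58, 17.7 and 81.4 CPM in MI4KO but 0.886, 5.94 and 1.37 CPM in MI4OE. As with Lipe and Angptl4, MI4KO replicate 3 was the highest library for Adipoq. The ratio of Lipe to Adipoq in CPM ran from 0.926 in MI4KO replicate 3 to 25.8 in MI4OE replicate 1. That of Angptl4 to Adipoq ran from 0.168 in MI4KO replicate 3 to 1.84 in MI4OE replicate 3. Angptl4 was similar in MI4KO replicates 1 and 2 (6.18 and 6.06 CPM), where the sum without Fabp4 was 71.1 and 215 CPM. Lipe and Angptl4 are also abundant in fat cells, and the part of the adipocyte markers in either result was not tested. The 6 brown adipocyte markers summed to 2.42, 103 and 3.93 CPM in MI4KO and to 15.1, 3.85 and 6.01 CPM in MI4OE, and of the 3 that could be tested 2 were higher in MI4OE and none met the criterion. Most of the sum in MI4KO replicate 2 was Ucp1, at 71.0 CPM there and at no more than 0.148 CPM elsewhere.

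The glucocorticoid and fasting response list, which bears on Angptl4 by its known regulation, was also lower in MI4OE for 16 of its 17 genes, 5 of them by the criterion (Ddit4, Mt2, Cebpd, Trim63 and Tsc22d3). Its summed level was 3303, 1662 and 1200 CPM in the MI4KO libraries and 1134, 1244 and 1303 CPM in the MI4OE libraries. These sums overlapped, since MI4KO replicate 3 lay below MI4OE replicates 2 and 3. Angptl4 was highest in that MI4KO library (13.7 CPM) and was at 6.18 CPM in MI4KO replicate 1, where the sum was highest. The high library was MI4KO replicate 1, in which the glucocorticoid-induced Fkbp5 reached 148 CPM and the fasting factor Foxo1 110 CPM. In the other 5 libraries Fkbp5 stayed between 17.8 and 37.3 CPM. Without MI4KO replicate 1 the log2 fold changes were -0.91 for Mt2, from -3.70, and -0.36 for Trim63, from -1.22, and Trim63, Cebpd and Tsc22d3 no longer met the criterion. Ddit4 (-2.37, from -3.06) and Mt2 still met it, as both did with any other library left out. That of Fkbp5 then went from -1.25 to -0.0030. The part of this response in the level of Angptl4 was not tested.

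**Figure D2:**
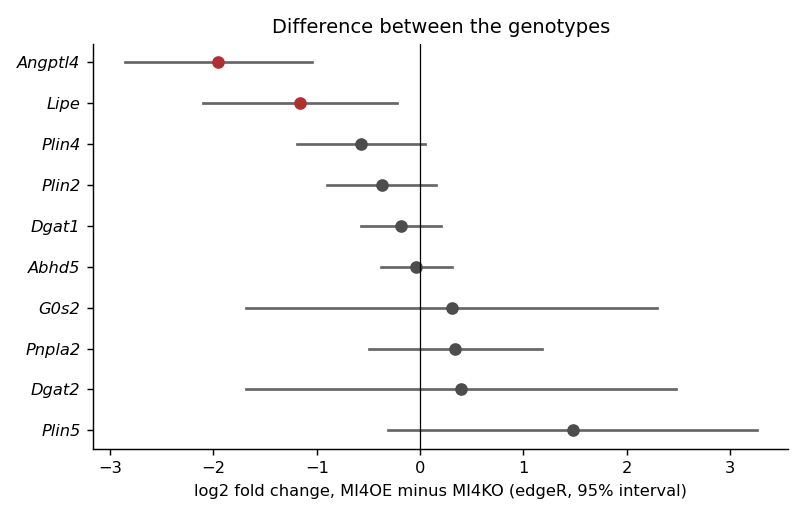
Fitted log2 fold change of each gene (MI4OE minus MI4KO, points) with its 95% interval from edgeR (lines), red where the 1.5-fold criterion and an unadjusted p under 0.05 were both met. Only the intervals of Angptl4 (-2.86 to -1.04) and Lipe (-2.10 to -0.22) exclude 0, and those of Dgat2, G0s2 and Plin5 span more than 3 log2 units.

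Among the perilipins, the muscle-enriched Plin4 was the most abundant per length, at a mean of 59.1 TPM (transcript abundance per length) over the 6 libraries, followed by Plin2 at 26.3 TPM and Plin5 at 21.6 TPM. Plin4, a coat protein of lipid droplets, had 351, 186 and 232 CPM in MI4KO against 144, 196 and 179 CPM in MI4OE. Only MI4OE replicate 2 rose above the lowest MI4KO library, and the top value was that of MI4KO replicate 1. The difference was -0.57 on the log2 scale (SE 0.27, edgeR p 0.0674, adjusted p 0.688), and -0.28 without MI4KO replicate 1. Without MI4KO replicate 2, the lowest of its group, Plin4 met the criterion at -0.77 (unadjusted p 0.0259). Plin2, the perilipin that most tissues use and that is stable only on droplets, ranged from 23.0 to 40.0 CPM in MI4KO and from 23.0 to 28.9 CPM in MI4OE. Its log2 fold change was -0.37 with a 95% interval from -0.90 to 0.15, and -0.58 without MI4KO replicate 1 (unadjusted p 0.0162, adjusted p 0.756).

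Plin5, the perilipin of oxidative muscle that links droplets to mitochondria, had 9.29, 10.7 and 20.7 CPM in the MI4KO libraries against 85.1, 8.81 and 19.8 CPM in the MI4OE libraries. A single library, MI4OE replicate 1, held about all of the excess, and MI4OE replicate 2 was the lowest of the 6. Its fitted log2 fold change of 1.48 had a standard error of 0.77 (adjusted p 0.725). Without MI4OE replicate 1 it was 0.07, and without MI4OE replicate 2 it was 1.94. Plin5 made up 52.7% of the summed TPM of the 3 perilipins in MI4OE replicate 1, against 6.33% to 19.3% elsewhere. Plin4 and Plin5 are neighbours on chromosome 17 with 0 genes between them in GRCm38.p6, but Plin4 was lowest in the library in which Plin5 was highest.

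Pnpla2 was the most abundant of the 10 genes per length, at a mean of 165 TPM with a range from 117 to 271 TPM. Its level was 225, 192 and 288 CPM in MI4KO and 466, 178 and 250 CPM in MI4OE, and only MI4OE replicate 1 left the range of the MI4KO group on the upper side. Its log2 fold change of 0.34 (SE 0.36) became -0.14 without MI4OE replicate 1. Abhd5, its activator, was the steadiest gene of the list, with 28.9, 28.4 and 32.5 CPM in MI4KO and 32.7, 27.4 and 27.6 CPM in MI4OE. The highest library for Abhd5 held 1.19 times the lowest, and the 95% interval of its log2 fold change ran from -0.38 to 0.31 around -0.03. The sign of that small value changed with the scaling, being 0.0564 with total counts.

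G0s2, the inhibitor of Pnpla2, had 3.28, 7.96 and 20.4 CPM in MI4KO against 29.6, 4.30 and 5.43 CPM in MI4OE. High values were found in a library of each genotype, MI4OE replicate 1 and MI4KO replicate 3, and the groups overlapped. Its log2 fold change of 0.30 (SE 0.86) became -1.12 without MI4OE replicate 1. The ratio of each partner to Pnpla2 in the same library, in TPM, is free of the scaling between libraries, and 5 such ratios were compared. For G0s2 the ratio ran from 0.0506 in MI4KO replicate 1 to 0.247 in MI4KO replicate 3, with 0.221, 0.0842 and 0.0757 in MI4OE. The groups overlapped (difference -0.12 on the log2 scale, two-sided exact permutation p = 0.9).

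The ratio of Lipe to Pnpla2 was 0.0972, 0.167 and 0.246 in MI4KO and 0.0462, 0.0941 and 0.0695 in MI4OE. The lowest MI4KO value lay just above the highest MI4OE value, so the groups did not overlap. The log2 difference was -1.24, with a two-sided exact permutation p of 0.1, the smallest possible, and 0.5 after adjustment over the 5 ratios. For Abhd5, Plin5 and Plin2 the log2 differences of the ratio were -0.28, 0.71 and -0.59, with exact permutation p of 0.6, 0.4 and 0.3. In MI4OE replicate 1 the ratio of Abhd5 to Pnpla2 was 0.0583, the lowest of the 6 libraries, where it was otherwise 0.0918 to 0.128.

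The acyltransferases behaved unlike each other. Dgat1, the enzyme of the endoplasmic reticulum that re-esterifies fatty acids, had 10.3, 9.11 and 10.4 CPM in MI4KO against 9.94, 7.90 and 8.39 CPM in MI4OE. These values lay within 1.32-fold of each other, and the log2 fold change was -0.19 with a 95% interval from -0.57 to 0.20. Dgat2, which works at the droplet on newly made fatty acids, had 12.0, 37.4 and 61.8 CPM in MI4KO against 114, 9.44 and 23.5 CPM in MI4OE. It had the widest range of the 10 genes, 12.1-fold from MI4OE replicate 2 to MI4OE replicate 1, so that the spread within MI4OE covered that of MI4KO. Accordingly, its log2 fold change of 0.40 (SE 0.89) had a 95% interval from -1.69 to 2.48 and became -1.17 without MI4OE replicate 1. The ratio of Dgat2 to Dgat1 in TPM was 0.893, 3.15 and 4.56 in MI4KO and 8.79, 0.917 and 2.15 in MI4OE, so which of the enzymes had the more abundant mRNA differed between libraries of the same genotype.

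The order of the 10 genes by mean TPM over all libraries was Pnpla2, Plin4, Dgat2, Plin2, G0s2, Plin5, Lipe, Abhd5, Dgat1 and Angptl4. Pnpla2 stood clear of the rest, since its lowest library (117 TPM) was above the highest value of any other gene (81.2 TPM for Plin4). The ranges of Plin4 (37.3 to 81.2 TPM), Dgat2 (7.31 to 78.1 TPM), Plin2 (16.9 to 40.9 TPM), G0s2 (5.91 to 60.0 TPM), Plin5 (6.64 to 68.2 TPM) and Lipe (11.4 to 43.8 TPM) overlapped each with its neighbours, and their order is not resolved, nor is that of Lipe and Abhd5. In MI4OE replicate 1 Plin4 was below Dgat2, Plin5 and G0s2. Dgat1 (8.19 to 10.1 TPM) was below Abhd5 (12.5 to 17.0 TPM) in every library. Angptl4 ran from 1.29 to 12.0 TPM and was above Dgat1 only in MI4KO replicate 3.

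**Figure D3:**
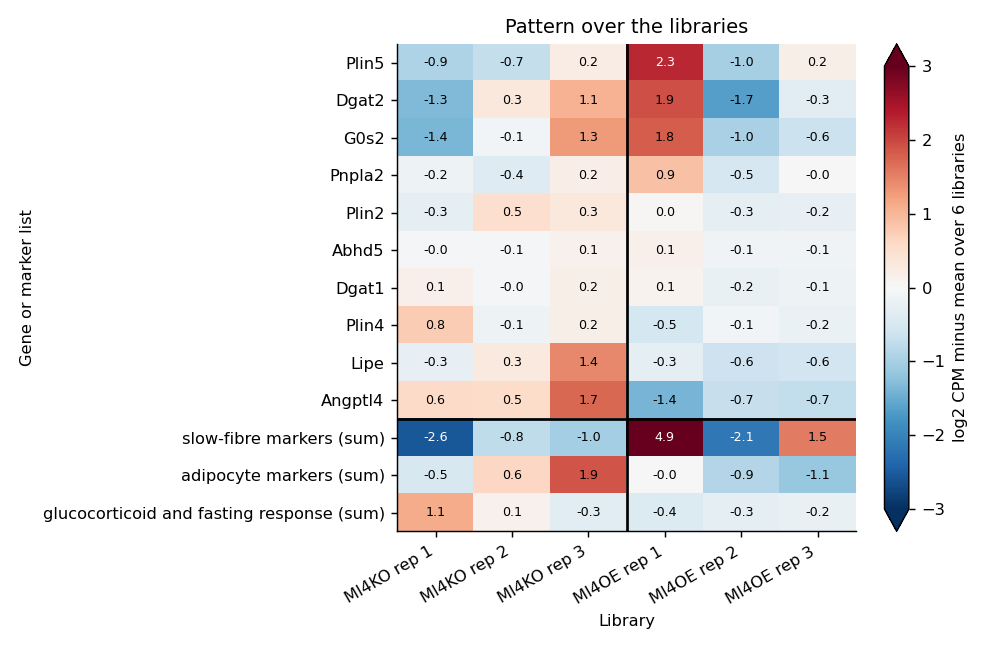
Level of each gene in each library on the log2 CPM scale, centred on its mean over the 6 libraries, with the summed CPM of 3 marker lists below the line (the colour scale stops at 3, values are printed). Plin5, Dgat2, G0s2 and Pnpla2 are highest in MI4OE replicate 1, the library with the highest slow-fibre sum (4.92 above its mean), and Lipe and Angptl4 are highest in MI4KO replicate 3, the library with the highest adipocyte sum (1.90 above its mean).

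Over all 6 libraries the highest held at least 4 times the lowest in 5 of the 10 genes, Lipe, Angptl4, G0s2, Plin5 and Dgat2, and in 12.3% of all tested genes. Within a genotype the widest ranges were 12.1-fold for Dgat2, 9.66-fold for Plin5 and 6.89-fold for G0s2, all in MI4OE, while Lipe reached 3.23-fold and Angptl4 2.26-fold, both in MI4KO. Dgat2 and G0s2 had high values in the same libraries, MI4OE replicate 1 and MI4KO replicate 3, and low ones in MI4KO replicate 1 and MI4OE replicate 2. Their patterns over the 6 libraries differed by a root mean square of 0.36 log2 units, which left only Fgf9 and Adig nearer among the 11296 genes compared with Dgat2. The nearest to Dgat2 were Fgf9, a growth factor, and Adig, a small protein of fat cells, both at 0.27. Fgf9 was low, at 0.280 to 3.64 CPM. Adig was highest in MI4OE replicate 1, where the adipocyte markers without Fabp4 had their lowest sum (19.0 CPM). The nearest to Plin5 were Fam69b (0.17), Hspb7 (0.20), a small heat shock protein of heart and muscle, and Vgll2 (0.21), a cofactor of muscle transcription. Fam69b was also low, at 0.350 to 5.07 CPM. The nearest to G0s2 were Fgf9 (0.34), Dgat2 (0.36) and Xaf1 (0.42), and these likenesses rest on 6 points of which MI4OE replicate 1 is the most extreme.

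Slow-fibre marker mRNA differed widely between the libraries. The summed level was 41.5, 144 and 120 CPM in MI4KO and 7387, 55.3 and 712 CPM in MI4OE, and 8 of 10 markers were higher in MI4OE by the criterion, none without overlap. None of these 8 met it without MI4OE replicate 1. The slow myosin gene Myh7 reached 1603 CPM in MI4OE replicate 1 and 162 CPM in MI4OE replicate 3, with 0.205 to 20.5 CPM elsewhere. Tnni1, the slow troponin I, was at 0 in MI4OE replicate 2. Plin5, Dgat2, G0s2 and Pnpla2 were highest where this sum was highest, and the part of these markers in their levels was not tested. By contrast MI4OE replicate 1 held the lowest level of Angptl4 and Plin4, and Lipe was highest in MI4KO replicate 3.

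**Figure D4:**
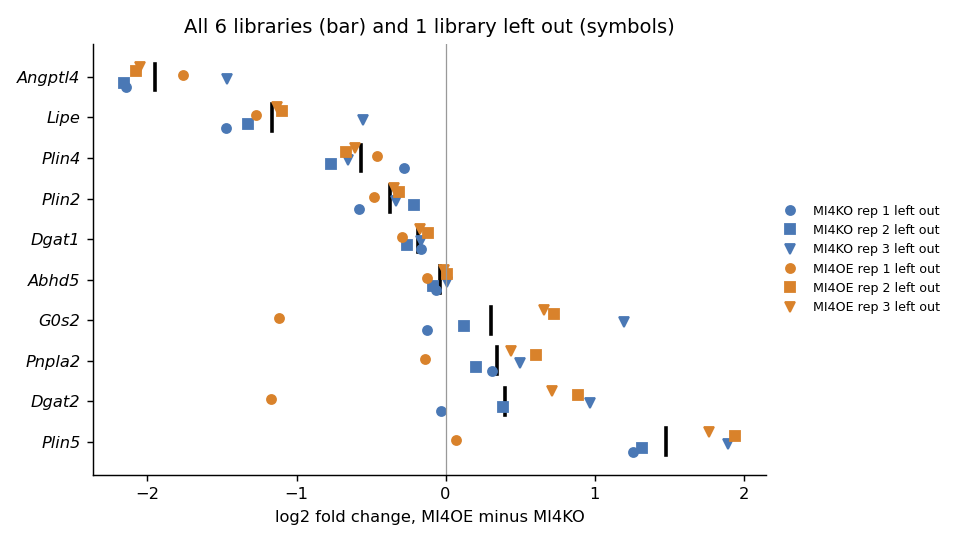
Log2 fold change (MI4OE minus MI4KO) of each gene with all 6 libraries (black bar) and with each library left out in turn (symbols; colour gives the genotype, shape the replicate). The values of Angptl4 (-2.16 to -1.47) and Lipe (-1.47 to -0.55) stay below 0, while G0s2, Pnpla2 and Dgat2 fall below 0 when MI4OE replicate 1 is left out. G0s2 (-0.12) and Dgat2 (-0.03) also fall slightly below 0 without MI4KO replicate 1.

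The median log2 fold change of the 10 genes was -0.11, with 6 genes lower and 4 higher in MI4OE, beside a median of -4.3e-05 over all genes tested, 50% of which were lower. Without MI4OE replicate 1 the median was -0.47 and 9 of the 10 genes were lower. Plin5 was the exception, at 0.07. No gene of the list was higher in MI4OE by the criterion, which 4.36% of all genes met in that direction. Without MI4OE replicate 2, the library with the lowest Plin5, Dgat2 and Pnpla2, 1 gene was, namely Plin5, in a fit where 10.2% of all genes met the criterion in either direction.

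The transcripts of the 3 genes with more than 1 annotated form were compared by their share of the gene's expected counts. The main form of Lipe (NM_001039507) took 89.3% to 99.2% of its expected counts and the main form of Pnpla2 (NM_001163689) took 97.6% to 99.6%. A second Pnpla2 form (NM_025802) was at 0 counts in all 6 libraries. The main form of Plin5 (NM_025874) took 64.0% to 88.6%, with both the highest and the lowest share in MI4KO libraries (replicates 1 and 2). RSEM divides reads between forms that share most of their sequence, so small differences in these shares are uncertain. The other 7 genes had 1 form each.

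Genes that work beside these 10 were followed in 5 further lists, and no gene in them passed an adjusted p of 0.05 by the quasi-likelihood test. Of those named from these lists Plin1, Pnpla3 and Vldlr did by both DESeq2 and the exact test, and Cidec by the exact test alone. In the list of droplet coat and assembly genes 13 of 16 could be tested, with a median log2 fold change of -0.12 and 9 genes lower. At an unadjusted p under 0.05 there were 3 of them, and the 2 past the 1.5-fold criterion were Plin1 (-3.53) and Cidec (-3.62), which coat and fuse the large droplets of fat cells. Plin1 had 5.40, 20.4 and 37.0 CPM in MI4KO against 0.640, 3.57 and 1.06 CPM in MI4OE, without overlap, and both genes also belong to the list of adipocyte markers. By edgeR's exact test the adjusted p was 0.00727 for Plin1 and 0.0137 for Cidec, and DESeq2 gave 0.0353 and 0.0545. Bscl2 (seipin), which acts where droplets bud from the endoplasmic reticulum, had 23.2, 21.6 and 27.4 CPM in MI4KO against 15.8, 16.6 and 15.9 CPM in MI4OE. Its groups did not overlap either, but its fold of 1.49 (log2 fold change -0.58, SE 0.15) fell just short of the criterion. Plin3, the perilipin found on droplets and in the cytosol, had a log2 fold change of 0.41, and -0.36 without MI4OE replicate 1.

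In the list of lipolysis and its control 14 of 17 genes could be tested, with a median of -0.49 and 10 genes lower. Those past the criterion were all lower in MI4OE, among them Pnpla3, a lipase related to Pnpla2 (-2.07), Pde3b, the phosphodiesterase by which insulin restrains lipolysis (-1.95), Gnai1, an inhibitory G protein subunit (-1.70) and Adora1, an adenosine receptor that restrains lipolysis in fat cells (-1.48). Pnpla3, Pde3b, Gnai1 and Adora1 were each highest in MI4KO replicate 3, at 8.87, 5.04, 4.77 and 4.40 CPM. That library also had the highest sum of adipocyte markers (1041 CPM), and the part of these markers in the levels of these genes was not tested. Pnpla3, Pde3b and Adora1 met the criterion in all 6 fits that left out a library and Gnai1 in 3. By DESeq2 the adjusted p of Pnpla3 was 0.00871 and by edgeR's exact test 0.0168. Mgll, which removes the last fatty acid, had a log2 fold change of 0.58 and was highest in MI4OE replicate 1 at 149 CPM.

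In the list of triglyceride synthesis 18 of the 21 genes found in the table could be tested, with a median of -0.19 and 14 genes lower. Lpin1, the phosphatidate phosphatase that makes diacylglycerol for Dgat1 and Dgat2 in muscle, was the 1 gene past the criterion. It had 424, 309 and 233 CPM in MI4KO against 157, 234 and 192 CPM in MI4OE, so that MI4KO replicate 3 and MI4OE replicate 2 just overlapped. The log2 fold change was -0.73 (SE 0.27, adjusted p 0.578). Lpin1 met the criterion in 2 of the 6 fits that left out a library, and was at -0.49 without MI4KO replicate 1. Gpam, which starts glycerolipid synthesis at the mitochondrion, had -0.47, and 0.31 without MI4KO replicate 2, while Acsl1, the main acyl-CoA synthetase of muscle, had 0.03.

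Around lipoprotein lipase, the enzyme that Angptl4 inhibits, 9 of the 15 genes found in the table could be tested, with a median of 0.33 and 6 genes higher. Vldlr, a receptor that binds lipoproteins and helps deliver their fatty acids, had 367, 411 and 279 CPM in MI4KO against 101, 136 and 90.3 CPM in MI4OE. All MI4OE libraries were below all MI4KO libraries by a wide gap, and MI4KO replicate 3 was here the lowest of its group, unlike for Angptl4. Its log2 fold change was -1.69 (SE 0.24), between -1.88 and -1.58 over the libraries left out. Its edgeR quasi-likelihood p was 1.4e-04 and its adjusted p 0.216, with 3.6e-08 by DESeq2 and 3.1e-05 by edgeR's exact test, and the adjusted p ran from 3.6e-08 to 0.912 over its alternatives.

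Gpihbp1, the capillary protein that holds lipoprotein lipase, had 13.8, 12.1 and 17.2 CPM in MI4KO against 44.8, 18.0 and 23.5 CPM in MI4OE. The groups did not overlap, and the log2 fold change was 0.999 (SE 0.34, adjusted p 0.550), or 0.53 without MI4OE replicate 1, which is under 1.5-fold. Gpihbp1 met the criterion in 3 of the 6 fits that left out a library, and not without MI4KO replicate 1 or 2 either. None of the 10 genes was higher in MI4OE without overlap, which 7.38% of all genes were. Endothelial markers were also higher in MI4OE, with 9 of 9 higher, 4 of them by the criterion (Cdh5, Kdr, Tie1 and Tek), and a sum of 123 to 197 CPM in MI4KO and 215 to 428 CPM in MI4OE, with no marker at 0 in any library. Of these 4, only Cdh5 still met the criterion without MI4KO replicate 1, and only Cdh5 and Tie1 without MI4OE replicate 1. The part of the endothelial markers in the level of Gpihbp1 was not tested. Angptl1, a relative of Angptl4 that acts on vessels, had a log2 fold change of 1.04 and met the criterion in 3 of the 6 fits that left out a library. Fibroblast markers were also higher in MI4OE for 7 of 8 genes, 6 by the criterion and 6 without overlap, with sums of 224 to 368 CPM in MI4KO and 388 to 527 CPM in MI4OE and no marker at 0 in any library. Their part in the level of Angptl1 was not tested. Lpl itself had 106, 119 and 386 CPM in MI4KO against 760, 108 and 241 CPM in MI4OE, with a log2 fold change of 0.86 (SE 0.76), or -0.22 without MI4OE replicate 1.

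The PPAR response list held mainly genes of fatty acid uptake and oxidation that share regulators with Plin2, Plin5 and Angptl4. It also held receptors and cofactors themselves, such as Ppara and Ppard. It had 23 of 24 genes tested, a median of 0.25 and 14 genes higher. Its summed level was 2599, 2151 and 2531 CPM in MI4KO and 6331, 2068 and 2854 CPM in MI4OE, so that MI4OE replicate 1 alone was far from the rest. The acyl-CoA thioesterases Acot1 (2.86) and Acot2 (1.37) and the fatty acid carrier of muscle Fabp3 (2.18) were higher by the criterion, and Pparg, the receptor of fat cell formation (-1.30), was lower. Without MI4OE replicate 1 the log2 fold changes of Acot1, Acot2 and Fabp3 were 1.11, 0.44 and 0.40, none of them past the criterion. Over the 6 fits that each left out a library, Acot1 and Acot2 met it in 3, and Fabp3 and Pparg in 2. Fabp3 was at 2676 CPM in MI4OE replicate 1, the library in which Plin5 was also highest, and between 149 and 484 CPM in the others. Pdk4, the kinase that spares glucose during fasting, had a log2 fold change of -0.12, which turned to 0.0375 with total counts, and Ucp3, Cpt1b, Ppara and Ppard had -0.77, 0.54, 0.60 and -0.22, none with an unadjusted p under 0.05.

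**Figure D5:**
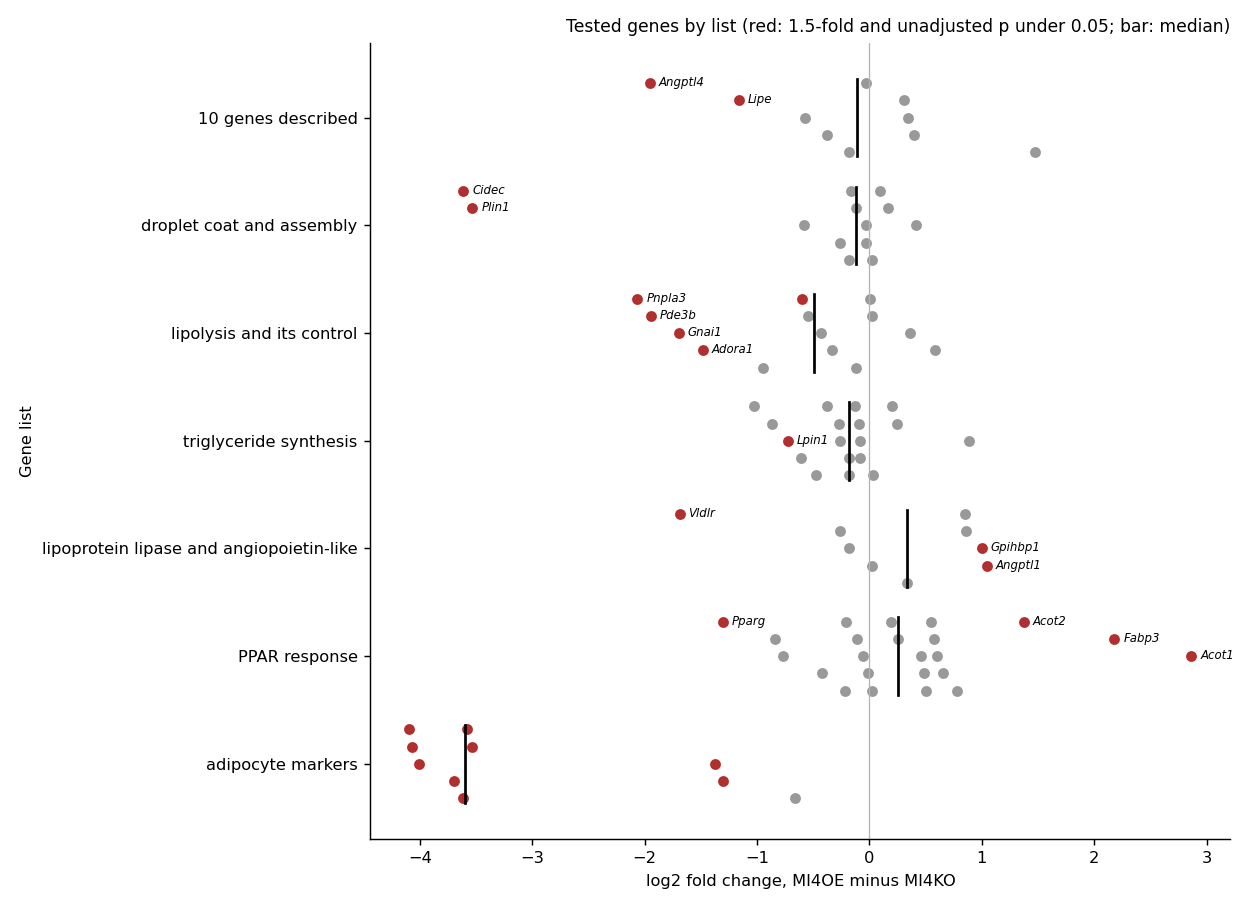
Log2 fold change (MI4OE minus MI4KO) of the tested genes of each list, with the median as a bar and genes past the 1.5-fold criterion with an unadjusted p under 0.05 in red (names given for the larger changes). The 10 genes have a median of -0.11, close to droplet coat genes (-0.12), while the adipocyte markers have -3.60 and the named genes Plin1 and Cidec lie among them.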

How the data were processed

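Gene-level values came from 6 gastrocnemius libraries, grouped by the genotype label alone. As the labels and methods state, the authors prepared stranded mRNA libraries, read single ends of 50 bases demultiplexed with bcl2fastq 2.17, mapped them to a UCSC transcript set with Bowtie2 2.1.0 and quantified them with RSEM 1.2.15. The genome build was not given in the sources used here. Expected counts were deposited as RSEM's unnormalized estimates for each gene and transcript, many of them fractional. The deposited TPM values are adjusted by the authors for length. Tables of the authors' own comparison, with fold changes, p-values, false discovery rates and TMM-scaled values, were left aside. Between the table of counts and the files of single libraries 0 genes differed.

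Expected counts were rounded and fitted on the whole table in R 4.3.3 with edgeR 4.0.16: filterByExpr (minimum count 10, minimum total 15), TMM factors, quasi-likelihood test, Benjamini-Hochberg adjustment over 12660 genes, no covariate. CPM used the TMM-scaled library sizes. The study's criterion was read from that fit (1.5-fold, unadjusted p of 0.05). Ratios used TPM and two-sided exact permutation tests. Patterns were compared over genes with a mean CPM of at least 1.

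Alternatives were RLE factors, total counts, no filter, a filter at mean CPM 1, DESeq2 1.42.0, edgeR's exact test, limma 3.58.1 on log2(TPM + 1) and log2(TPM + 0.1), and fits without each library. On simulated counts for this comparison (12660 genes, 200 changed) quasi-likelihood found 89 of the 110 genes with a 4-fold change, 9 of the 90 with a 2-fold change and 4 unchanged ones, and DESeq2 called 101, 37 and 24.

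Named besides the 10 genes were a fixed set (Plin1, Plin3, Cidec, Mgll, Gpam, Lpin1, Acsl1, Lpl, Gpihbp1, Vldlr, Pdk4, Ucp3, Cpt1b, Ppara, Ppard, Fkbp5, Foxo1, Adipoq, Myh7), list genes past a threshold (except a gene that is not reported here), and the 3 genes nearest in pattern to each of the 3 genes with the widest range. Bscl2, Adrb3, Fabp4, Tnni1 and Ucp1 were added once their values had been seen. The members and lists were chosen with earlier results of these data known. Gpat3, Gpat4, Adgre1 and Angptl8 were looked up by older symbols, and Gk was not found. The floor of 3 counts covers counting error only.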

Additional observations from a re-analysis of the deposited data

How the results depend on the processing

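No paired analysis was possible because no label ties libraries of both genotypes together. No gene of the 10 passed the adjusted threshold, whereas DESeq2 passed 1 and edgeR's exact test 1, Angptl4 in both. Over all genes that threshold was passed by 3 genes, 111 with DESeq2 and 108 with the exact test. The 1.5-fold criterion was met by 2 of the 10 genes, by 1 on log2(TPM + 1) with limma, by 1 on log2(TPM + 0.1), and by 1 to 3 when a library was left out (1 without MI4KO replicate 3 or MI4OE replicate 3, 3 without MI4KO replicate 2). Over all genes it was met by 841, by 468 with limma on log2(TPM + 1), and by 590 to 1314 with a library left out. The cause of these shifts was not tested. Abhd5 turned from -0.03 to 0.0564 with total counts and, by limma, to 0.0245 on log2(TPM + 1) and 0.0267 on log2(TPM + 0.1), and Pdk4 from -0.12 to 0.0375, 0.00751 and 0.00778.

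With a library left out, log2 fold changes ran across 0 for Abhd5 (-0.12 to 0.0121), Pnpla2 (-0.14 to 0.61), Dgat2 (-1.17 to 0.97), G0s2 (-1.12 to 1.196), Plin3 (-0.36 to 0.79), Mgll (-0.13 to 1.001), Gpam (-0.92 to 0.31), Acsl1 (-0.18 to 0.19), Lpl (-0.22 to 1.70), Pdk4 (-0.43 to 0.40), Ucp3 (-1.10 to 0.0224), Ppara (-0.19 to 0.96) and Foxo1 (-1.44 to 0.28). The log2 ratio to Pnpla2 then ran from -0.55 to 0.0165 for Abhd5 and from -0.75 to 0.39 for G0s2. Plin2, Plin4, Plin5, Lipe, Dgat1 and Angptl4 kept their direction in all 14 alternatives. With 3 libraries a group and the spread seen in Dgat2, G0s2 and Plin5, changes of several fold in these genes could not be resolved.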
